A study of Mus musculus with 6 samples.

Results

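Control-enriched lncRNA genes were 101 genes of 10209 genes of the type lncRNA in the deposited lncRNA table, which lists 23336 genes in all. They were chosen by their level in these same libraries. A member averaged at least 2 FPKM (fragments per kilobase of transcript, scaled to library depth) in control thymus and at most 0.25 of that control mean in irradiated thymus, with transcripts summed to the gene. Names of opposite-strand, small nucleolar RNA host and microRNA host genes, and genes also in the mRNA table, were left out by the rule. Of 105 genes that met both thresholds, 4 were left out by name. The difference between control and irradiated thymus is therefore a description here and carries no test for the members.

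The 3 control mice and the 3 irradiated mice were C57BL wild-type animals aged 5 weeks, which shared strain, age and housing. Irradiated mice received 6 Gy of X-rays at 800 cGy per min, and controls received none. Thymus tissue was taken 24 h later, and polyadenylated RNA was sequenced, with 1 library for each labelled sample. The labels name no sex and do not say whether the field covered the whole body.

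Long noncoding RNAs are transcripts that are not translated into a known protein. Many are spliced and polyadenylated like messenger RNA, some lie in introns or on the opposite strand of coding genes, and some hold the hairpin of a microRNA. Most cells of a young thymus are thymocytes that carry both CD4 and CD8 (double-positive thymocytes), and these cells are known to be sensitive to radiation. In bulk tissue, fewer cells of a type and less RNA per cell cannot be told apart.

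Among the 22 double-positive thymocyte marker genes found in the mRNA table, 20 fell and 0 rose (limma, adjusted p under 0.05). Their median log2 difference was -3.19, and a median of 11.3%, 9.56% and 10.1% of the control mean was left in irradiated replicates 1, 2 and 3. Summed marker levels were 4470 to 5020 FPKM in the controls and 423 to 572 FPKM in the irradiated libraries. Of 10 early (double-negative) thymocyte markers 3 fell and 5 rose, and of 10 mature single-positive T cell markers 3 fell and 4 rose. All 8 macrophage markers and all 7 fibroblast markers rose, and no marker found in the table was at 0 in every library. Over all genes tested in the mRNA table, 20.9% fell and 42.4% rose. Summed erythroid markers ranged from 51.3 to 139 FPKM in the controls and from 1.18 to 7360 FPKM after irradiation, and adipocyte markers from 18.1 to 37.8 and from 75.7 to 1410 FPKM. The part of these cell types in the members' levels was not tested.

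Several members are transcripts of loci known for small RNAs. Gm4258 spans the hairpins of miR-181a-1 and miR-181b-1, and A430106G13Rik spans the latter. They are a pair of microRNAs known to be abundant in developing thymocytes and to tune T cell receptor signalling. Kis2 lies at the start of the miR-106a hairpin, with 5 bases of overlap. The mature 5-prime arms are shown from RefSeq (GRCm38.p6) with the seed, bases 2 to 8, in capitals, because the 181 arms share a seed while miR-106a-5p has another.
mmu-miR-181a-5p: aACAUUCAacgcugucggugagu
mmu-miR-181b-5p: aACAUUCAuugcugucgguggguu
mmu-miR-106a-5p: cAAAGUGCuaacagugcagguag
These arms lie at chr1:137966468-137966490 (plus strand), chr1:137966650-137966673 (plus strand) and chrX:52742541-52742563 (minus strand). Levels of the mature microRNAs were not analysed here, and the values that follow are those of the long transcripts.

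The miR-181a-1 and miR-181b-1 locus spans chr1:137898595-138000384 and holds 3 members on the plus strand. Gm4258 is annotated as processed transcript, and its span covers both hairpins. It measured 105, 115 and 128 FPKM in the control libraries and 4.28, 1.63 and 3.06 FPKM in the irradiated ones. Of its control level, 81.1% was a single-exon transcript at chr1:137898595-137899729, which does not reach the hairpins. The transcript that spans them averaged 22.0 FPKM in controls and 0.628 FPKM after irradiation. Gm26930, which lies inside Gm4258 and is annotated sense-intronic, measured 95.4, 103 and 114 FPKM in controls and 4.15, 2.16 and 2.57 FPKM after irradiation. A430106G13Rik, a lincRNA that starts inside the miR-181a-1 hairpin, measured 29.7, 31.5 and 38.1 FPKM in controls and 1.33, 0.293 and 0.776 FPKM after irradiation. The 3 genes thus kept 2.57%, 2.85% and 2.42% of their control means, and the groups did not overlap. Gm26930 and A430106G13Rik do not overlap each other and lie only within the span of the longer Gm4258 transcript. Strand use in counting is not given in the sources used here. Reads within that span therefore cannot be assigned to separate transcripts with certainty. Ptprc, the gene of the leukocyte phosphatase CD45 and the nearest gene of the mRNA table, 63023 bp from Gm4258, fell from 416 ± 10.1 to 128 ± 21.2 FPKM (SD, n = 3 per group; log2 difference -1.72, SE 0.20, limma adjusted p = 0.000446).

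**Figure D1:**
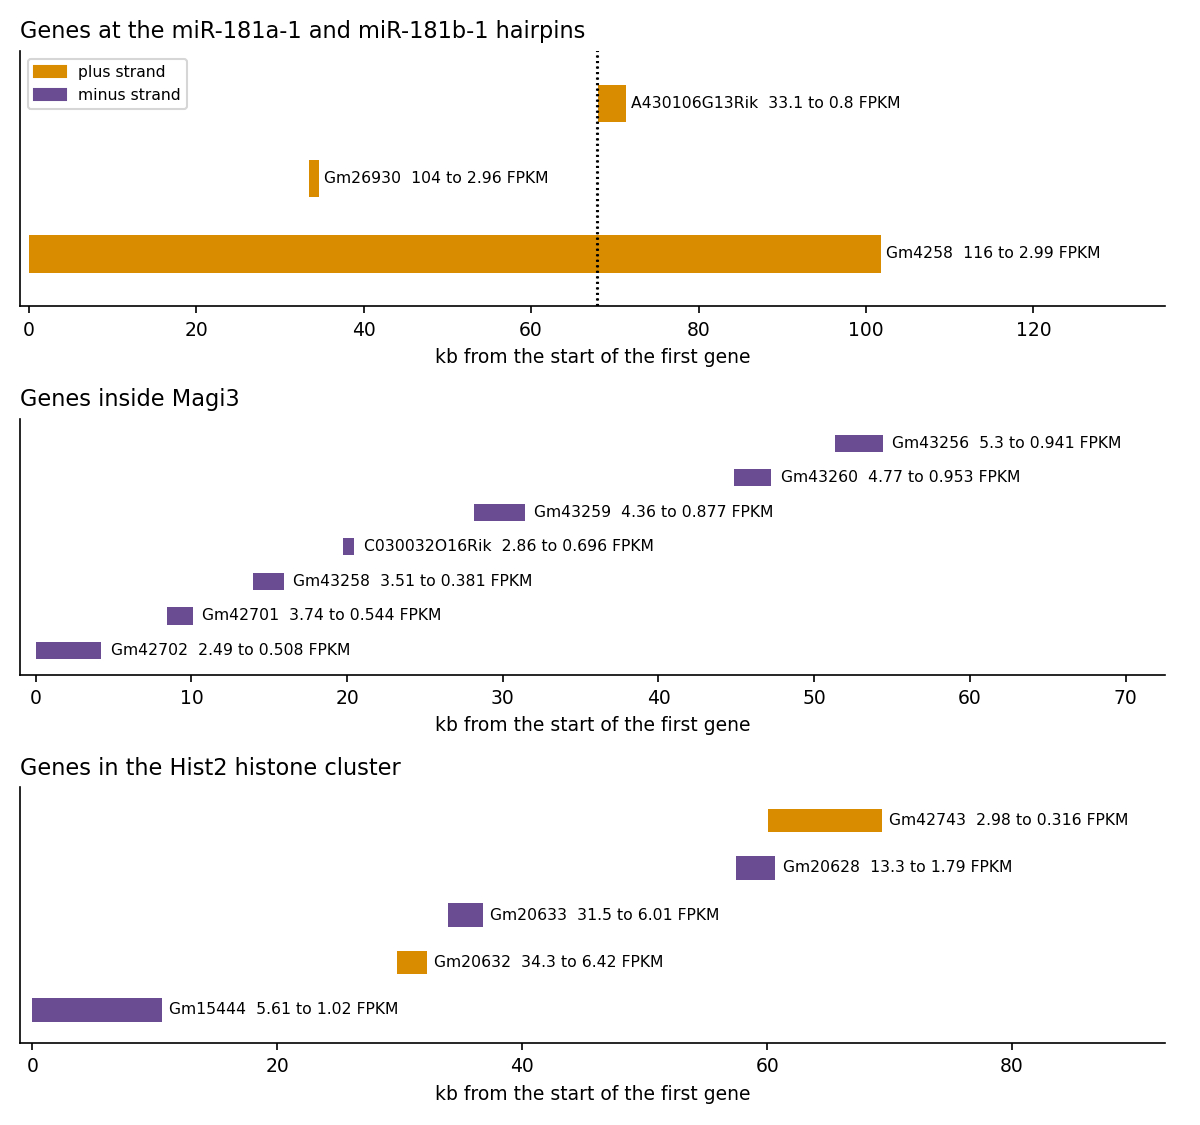
Positions of members in kb from the start of the first gene at 3 loci, coloured by strand, with each gene's control and irradiated mean FPKM beside it and dotted lines at the miR-181a-1 and miR-181b-1 hairpins, which are drawn almost on top of each other. In the locus that holds the hairpins the means of Gm4258, Gm26930 and A430106G13Rik went from 116 to 2.99, from 104 to 2.96 and from 33.1 to 0.8 FPKM. The 7 genes inside Magi3 lay between 2.49 and 5.3 FPKM in controls.

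The highest member was Gm28967, and its sequence shows why its identity is uncertain. Its single exon at chr6:125186361-125186641 (minus strand, GRCm38) lies with all 281 bases inside the small Cajal body RNA gene Scarna10, which is 325 bases long and on the same strand. Capitals mark the bases shared with Scarna10, which here are all of them, as read from the GENCODE M21 transcript.
Gm28967: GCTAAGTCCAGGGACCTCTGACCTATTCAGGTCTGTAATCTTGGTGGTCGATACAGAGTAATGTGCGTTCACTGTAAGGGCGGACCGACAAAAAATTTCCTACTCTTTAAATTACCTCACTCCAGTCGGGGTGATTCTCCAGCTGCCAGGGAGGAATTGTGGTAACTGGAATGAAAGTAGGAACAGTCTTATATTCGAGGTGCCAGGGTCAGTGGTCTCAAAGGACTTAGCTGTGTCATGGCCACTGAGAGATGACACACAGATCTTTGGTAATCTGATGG
Gm28967 measured 307, 494 and 351 FPKM in the controls and 91.0, 18.6 and 21.7 FPKM in the irradiated libraries, of which replicate 1 was highest. Reads of Scarna10 and of Gm28967 cannot be told apart. The gene that surrounds it, Ncapd2, a condensin subunit, fell from 64.0 to 14.3 FPKM (limma log2 difference -2.22, adjusted p = 0.00039). In all, 12 members (11.9%) overlapped a small RNA gene on the same strand, by any number of bases. Gm4258 and A430106G13Rik share hairpins and are both counted. The count was 19 (5.59%) among the 340 other eligible lncRNA genes with at least 2 FPKM in controls, the comparison set used below.

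Terc, the RNA template of telomerase, was the second highest member, at chr3:96414437-96414833. It measured 252, 283 and 212 FPKM in controls and 40.2, 7.53 and 0.776 FPKM after irradiation. Its irradiated libraries differed 51.8-fold from highest to lowest, so the mean of 6.49% left rests largely on irradiated replicate 1. The Terc identifier is the only one of the members absent from GENCODE M21, and its coordinates are those of the deposited table. How far the selection of polyadenylated RNA shapes the levels of Terc and of Gm28967 was not tested.

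**Figure D2:**
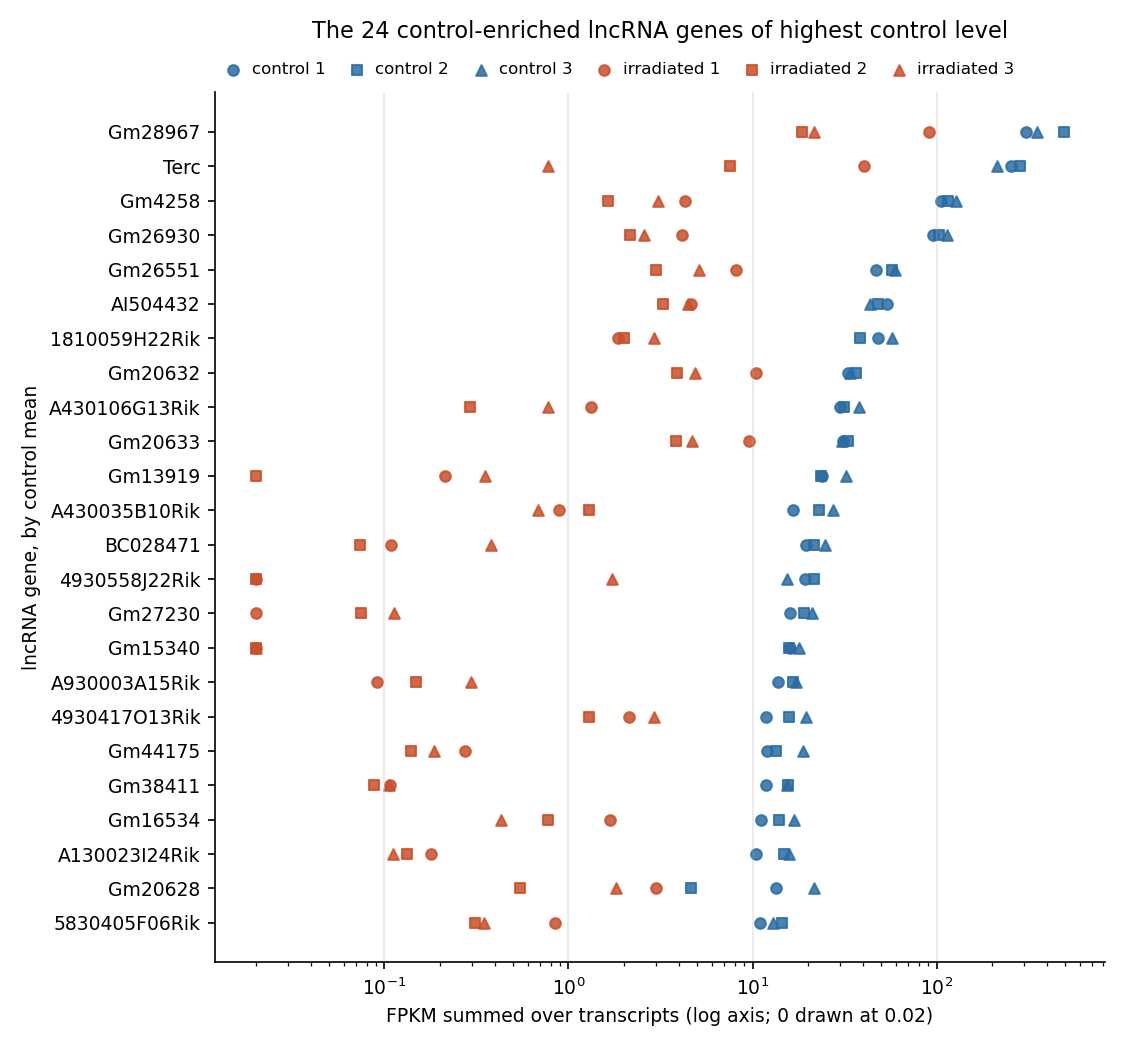
FPKM on a log axis, with values of 0 drawn at 0.02, for the 24 members of highest control mean, 1 symbol per library. Control symbols sit together at the right, apart from Gm20628 with 4.61 FPKM in control replicate 2, and the irradiated symbols of 1 gene spread widely, as in Terc from 0.776 to 40.2 FPKM.

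Across the 101 members, control means ran from 2.02 to 384 FPKM with a median of 5.02. There were 31 members at 10 FPKM or more and 50 under 5 FPKM. A median of 10.6% of the control mean was left, and the median log2 difference was -3.05. By depth of the difference, 5 members were listed at 0 in all irradiated libraries, 8 kept up to 1%, 24 kept over 1% to 5%, 27 kept over 5% to 15%, and 37 kept over 15% to 25%. The lowest control library lay above the highest irradiated one in 100 members, and the same 100 passed the threshold on the lower side. Both follow from the choice of members, and nothing is read from them. Over all 9421 genes tested in the lncRNA table, 39.7% did not overlap in this direction, 30.1% passed as lower and 15.8% as higher. That split depends on scaling: after median-ratio scaling 1628 genes were lower and 2030 higher, against 2840 and 1492 as deposited. The median log2 difference of all tested lncRNA-table genes was -0.44 as deposited and -0.02 after median-ratio scaling.

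**Figure D3:**
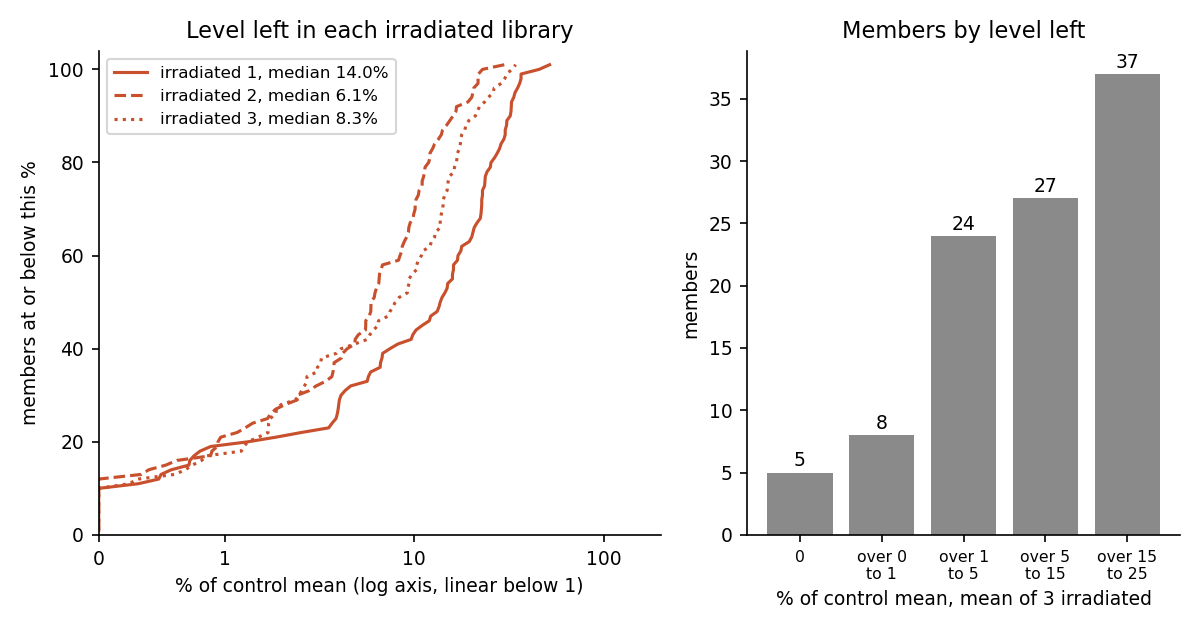
Left, the number of members at or below a given percentage of their control mean in each irradiated library (log axis, linear below 1%); right, members counted by the mean percentage left. The curve of irradiated replicate 1 lies to the right over most of its course, with a median of 14.0% against 6.14% and 8.3%.

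The exception was Xist, the RNA that silences an X chromosome in female cells. It measured 8.33 FPKM in control replicate 1, 0.0213 and 0.00129 FPKM in the other 2 controls, and 0.0191 to 0.025 FPKM in the irradiated libraries. Its control mean of 2.79 FPKM therefore rests on 1 library, and without that library Xist does not meet the rule. The Y-linked genes Ddx3y, Eif2s3y, Kdm5d and Uty were present in all 6 libraries, with Ddx3y at 26.9 to 30.7 FPKM in controls and 12.4 to 19.2 FPKM after irradiation.

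The irradiated libraries differed among themselves. Of the 96 members above 0 in an irradiated library, 61 were highest in irradiated replicate 1, 14 in replicate 2 and 21 in replicate 3. The comparison set had the same order of medians, 69.7%, 46.2% and 51.4% of the control mean, and 240 of its 340 genes were highest in replicate 1. Among controls the median coefficient of variation of a member was 16.5%, and 14 members exceeded 30%. Control replicate 3 was the highest control in 56 members, replicate 2 in 27 and replicate 1 in 18.

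T cell genes near the members were described next, since their levels were not used to choose the members. Of a list of 101 T cell genes, 15 lay within 100 kb of a member, at 19 members, and all 15 fell. The whole list holds 100 tested genes, of which 67 fell, 14 rose and 19 did not pass. The list holds many thymocyte genes and was chosen with earlier results known, and members and neighbours come from the same 6 libraries, so the count is a description.

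CD8 is the co-receptor that marks cytotoxic T cells and double-positive thymocytes, and Cd8a and Cd8b1 encode its chains. Gm44175, a lincRNA at chr6:71354351-71360829 on the opposite strand between them, measured 12.0, 13.4 and 18.8 FPKM in controls and 0.274, 0.139 and 0.186 FPKM after irradiation, which left 1.36%. Cd8a, 12598 bp away, fell from 248 ± 17.6 to 13.5 ± 3.39 FPKM (SD, n = 3 per group; limma log2 difference -4.21, SE 0.21, adjusted p = 5.3e-05). Cd8b1, 16857 bp away, fell from 223 ± 20.1 to 10.2 ± 2.77 FPKM (log2 difference -4.47, limma adjusted p = 5.3e-05).

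Transcription factors of early T cell development had members close by. Gm33619 lies 21711 bp from Myb, a factor needed for thymocyte survival, and measured 7.81, 9.72 and 10.4 FPKM in controls and 0.329, 0 and 0.0799 FPKM after irradiation. Gm20098, 49437 bp from Satb1, a chromatin organiser of thymocytes, measured 2.72, 3.15 and 3.93 FPKM and then 0.0827, 0.0417 and 0.0556 FPKM. Tcf7, which encodes TCF-1, had 2 members, Gm26551 at 54.4 FPKM and A630014C17Rik at 3.14 FPKM in controls, with 9.97% and 10.7% left. Gm26551 overlaps Tcf7 by 17144 bp on the same strand, so reads there cannot be assigned with certainty. The nearest gene of Gm26551 by overlap is Cdkl3, on the opposite strand, which did not pass (log2 difference -0.18, limma adjusted p = 0.558). Gm43352, antisense to the start of Lef1, the related factor LEF-1, kept 16.2% of 4.53 FPKM. Myb fell by 4.38, Satb1 by 4.0, Tcf7 by 3.01 and Lef1 by 1.61 on the log2 scale (limma adjusted p = 7.26e-05, 0.000104, 6.95e-05 and 0.00173).

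Other pairs held genes of receptors and signalling proteins, among others. Gm17021 overlaps the chemokine receptor gene Ccr9 on the opposite strand and measured 1.35, 2.74 and 1.97 FPKM in controls and 0.342, 0.223 and 0.326 FPKM after irradiation, while Ccr9 fell from 114 to 3.03 FPKM (limma log2 difference -5.23, adjusted p = 4.86e-05). Members 2900079G21Rik and 2310075C17Rik at Arpp21, a gene high in double-positive thymocytes, kept 4.1% and 3.5%, and Arpp21 fell from 263 to 5.48 FPKM (log2 difference -6.05, limma adjusted p = 0.000294). Gm16565 and Gm37469 at Cd247, the zeta chain of the T cell receptor complex, kept 15.2% and 12.2%. Gm37065 at Slamf6, a receptor of the SLAM family, measured 11.4, 11.3 and 10.7 FPKM in controls but 1.09, 0.0591 and 0 FPKM after irradiation, so that replicate 1 alone held most of the level left. A430093F15Rik lies between Cd5 and Cd6, a pair of T cell surface receptors, and kept 22.1%, and Gm30373, 73131 bp from Thy1, kept 21.6%. Cd27 lies near Gm28967 and 4930417O13Rik, at 45981 and 28466 bp, and fell by 3.2 on the log2 scale (limma adjusted p = 7.24e-05).

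**Figure D4:**
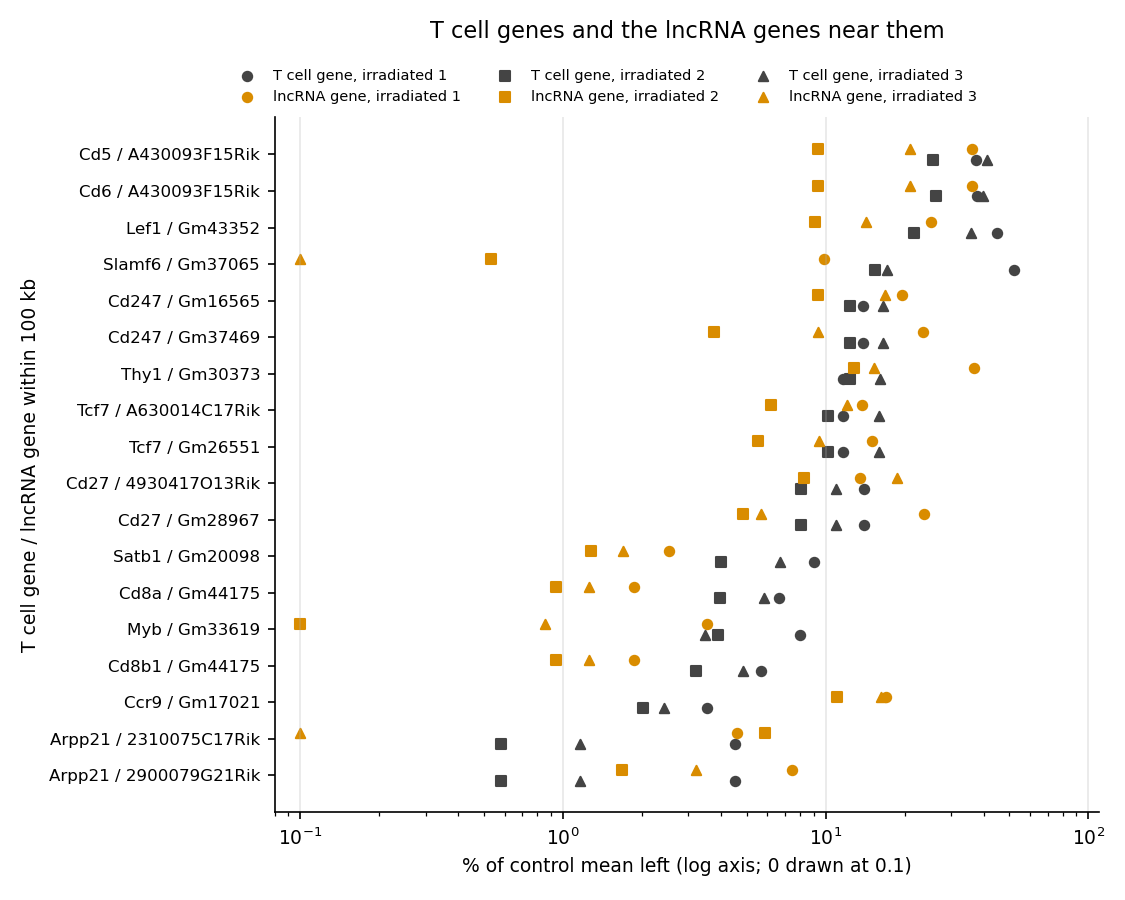
Percentage of the control mean left in each irradiated library (log axis, 0 drawn at 0.1%) for each T cell gene in grey and the member within 100 kb in orange, ordered by the T cell gene. Of the 21 pairs, 18 are drawn, and the rule holds each member's mean share at or under 25%, a limit that the T cell genes do not have. In the pairs with Cd8a, Cd8b1 and Satb1 the orange symbols lie left of the grey ones, and in the pair of Ccr9 and Gm17021 they lie right of them.

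Histone genes were the nearest genes of 5 members. Replication-dependent histone genes are expressed in dividing cells, and their messages normally lack a polyadenylated tail. Gm20632, antisense to Hist2h2aa2, measured 33.1, 36.3 and 33.7 FPKM in controls and 10.5, 3.88 and 4.85 FPKM after irradiation. Gm20633, antisense to Hist2h2aa1, measured 31.0, 32.9 and 30.6 FPKM and then 9.53, 3.82 and 4.69 FPKM. The pair has similar values in every library, and the histone genes beneath them are near-identical copies, so reads may be split between them. Of the 5 members at histone genes, Gm20628 varied most among its controls, with 13.4, 4.61 and 21.7 FPKM. It had 2.99, 0.546 and 1.82 FPKM after irradiation. Gm42743, at Hist2h2bb, kept 10.6%, and 4930558J22Rik, antisense to Hist1h4b, had 19.2, 21.7 and 15.4 FPKM in controls and 0, 0 and 1.73 FPKM after irradiation. The histone genes fell too: Hist2h2bb from 1070 to 74.4 FPKM (limma log2 difference -3.97, adjusted p = 0.000192) and Hist1h4b from 1130 to 95.8 FPKM (log2 difference -3.71, adjusted p = 0.000614).

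Magi3, a scaffold protein of cell junctions, held 7 sense-intronic members within 54409 bp on chromosome 3 (chr3:104135785-104190193). Their control means were 2.49 to 5.3 FPKM, and 10.9% to 24.3% was left. Gm43256, the highest, measured 5.7, 5.28 and 4.92 FPKM in controls and 1.08, 1.02 and 0.727 FPKM after irradiation. Magi3 itself measured 14.1 ± 0.579 FPKM in controls and 4.87 ± 0.79 FPKM after irradiation (SD, n = 3 per group; log2 difference -1.53, SE 0.16, limma adjusted p = 0.000287). Reads from introns of unspliced Magi3 RNA and reads of these intronic genes cannot be told apart, so the 7 are not 7 separate results. Likewise Gm43581 and Gm43585 lie within introns of Slc16a1, a lactate transporter, and kept 8.79% and 11.5%.

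Loci other than Magi3 also held several members. Joined over gaps of up to 100 kb, the 101 members fell into 77 loci, of which 12 held 2 or more members and 36 members in all. Chromosome 3 carried 24 members (23.8%), against 10.0% of the comparison set, but only 9 of the 77 loci. Of the 24 members, 20 lay in its 5 loci with several members, among them those inside Magi3. The comparison set was not joined into loci, so neither closeness nor an excess on chromosome 3 is read from these values. At Kcna3 and Kcna2, genes of voltage-gated potassium channels, AI504432 measured 53.6, 48.0 and 43.4 FPKM in controls and 4.65, 3.28 and 4.44 FPKM after irradiation. A930002I21Rik at the same locus had 9.75, 9.97 and 16.3 FPKM and then 0, 0 and 0.306 FPKM, and Gm27008 kept 3.25%. Kcna3 fell from 41.1 to 5.87 FPKM (limma log2 difference -2.81, adjusted p = 6.86e-05), whereas Kcna2 measured 4.05 and 4.33 FPKM and did not pass (limma adjusted p = 0.874). On chromosome 9, Gm27230 and Gm27255 lie near Zfp280d and Mns1, at 32197 and 28133 bp, and kept 0.333% and 0%. BC065403 at the same locus overlaps Zfp280d by 2043 bp on the opposite strand and kept 3.03%.

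By GENCODE M21, 36 members were lincRNA, 27 antisense, 19 processed transcripts and 14 sense-intronic. Against the comparison set, lincRNA made up 35.6% and 30.0% and processed transcripts 18.8% and 20.9%, while antisense genes made up 26.7% against 19.4% and sense-intronic genes 13.9% against 21.8%. Gm10392 carries the type protein_coding in that release. The longest transcript had a median of 1740 bases against 1780, and 26.7% against 29.7% of genes were single-exon. No test was run on these shares, and members at 1 locus are not independent.

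The members lowest after irradiation were read from the rule's own values. Gm15340, Gm27255, BB031773, Gm32004 and Gm5914 were listed at 0 in all 3 irradiated libraries. Their control values were 15.9, 15.7 and 17.8 FPKM for Gm15340, 9.91, 12.7 and 14.5 FPKM for Gm27255, and 7.8, 10.6 and 12.2 FPKM for BB031773. Gm32004 had 7.65, 9.99 and 12.6 FPKM, and Gm5914 had 9.52, 9.87 and 7.07 FPKM. For scale, 1 fragment in a transcript of 1 kb is worth 0.0391 to 0.0456 FPKM in these libraries. BB031773 is antisense to Tctex1d1, whose level fell from 10.7 to 0.0345 FPKM (limma log2 difference -6.29, adjusted p = 5.75e-05), the largest fall among the tested nearest genes. Above 0, the 5 smallest shares were those of Gm41600 (0.105%), Gm27230 (0.333%), Gm38411 (0.705%), Nron (0.706%) and Gm13919 (0.708%). Nron, a noncoding repressor of the transcription factor NFAT, measured 3.94, 4.81 and 6.58 FPKM in controls and 0.0365, 0.0595 and 0.0122 FPKM after irradiation.

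Promoter sequences were available from RefSeq (GRCm38.p6, 250 bases before to 50 after a start) for 36 of the 101 members, matched by symbol, and for 6 of these 10 lowest members. They are shown because these genes were listed at 0 or had under 1% of their control mean left. Capitals mark the letters of 7 short motifs of thymocyte factors and of the TATA box, searched on both strands and spelled out with their shares after the sequences.
BB031773: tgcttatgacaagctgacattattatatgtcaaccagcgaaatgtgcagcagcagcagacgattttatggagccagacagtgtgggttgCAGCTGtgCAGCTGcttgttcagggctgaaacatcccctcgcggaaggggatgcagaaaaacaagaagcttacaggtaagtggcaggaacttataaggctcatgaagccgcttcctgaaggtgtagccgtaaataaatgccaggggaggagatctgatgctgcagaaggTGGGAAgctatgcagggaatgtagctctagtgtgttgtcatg
Gm32004: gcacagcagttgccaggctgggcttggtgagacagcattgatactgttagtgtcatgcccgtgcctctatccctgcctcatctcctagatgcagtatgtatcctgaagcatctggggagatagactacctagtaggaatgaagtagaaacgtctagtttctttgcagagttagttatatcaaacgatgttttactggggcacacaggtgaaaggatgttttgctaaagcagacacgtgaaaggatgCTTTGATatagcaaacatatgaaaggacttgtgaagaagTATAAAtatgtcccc
Gm5914: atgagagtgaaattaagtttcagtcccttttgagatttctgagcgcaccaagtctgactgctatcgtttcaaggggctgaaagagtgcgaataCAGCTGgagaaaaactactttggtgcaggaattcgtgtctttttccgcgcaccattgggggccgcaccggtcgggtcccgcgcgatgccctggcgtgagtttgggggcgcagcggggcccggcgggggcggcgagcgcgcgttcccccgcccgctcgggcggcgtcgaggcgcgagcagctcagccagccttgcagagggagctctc
Gm41600: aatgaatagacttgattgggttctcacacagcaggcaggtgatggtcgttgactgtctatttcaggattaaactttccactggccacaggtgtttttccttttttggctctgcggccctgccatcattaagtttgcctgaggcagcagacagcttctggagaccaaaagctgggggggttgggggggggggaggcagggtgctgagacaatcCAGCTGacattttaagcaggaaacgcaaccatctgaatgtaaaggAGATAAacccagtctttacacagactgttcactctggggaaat
Gm27230: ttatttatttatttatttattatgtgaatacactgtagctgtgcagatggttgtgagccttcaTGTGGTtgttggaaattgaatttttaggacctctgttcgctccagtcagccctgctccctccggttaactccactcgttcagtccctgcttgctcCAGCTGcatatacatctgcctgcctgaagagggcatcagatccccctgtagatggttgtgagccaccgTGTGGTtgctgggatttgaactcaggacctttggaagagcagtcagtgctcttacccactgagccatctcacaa
Nron: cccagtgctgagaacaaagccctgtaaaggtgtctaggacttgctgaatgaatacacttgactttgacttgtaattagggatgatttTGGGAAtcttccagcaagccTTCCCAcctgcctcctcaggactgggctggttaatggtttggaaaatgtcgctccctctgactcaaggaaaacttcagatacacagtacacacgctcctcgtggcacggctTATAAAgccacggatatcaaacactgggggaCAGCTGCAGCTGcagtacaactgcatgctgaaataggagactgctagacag
They lie at chr4:103011916-103012215 (minus strand), chr13:107565324-107565623 (minus), chr8:105637425-105637724 (minus), chr17:52304258-52304557 (plus), chr9:72401784-72402083 (plus) and chr2:33805566-33805865 (plus). For Gm32004 and Gm5914 RefSeq gives a second start, not shown. The stretch shown for Gm27230 lies inside the gene as listed in the deposited table. The transcripts of Gm27230 listed there start elsewhere, at 72395974, 72395980 and 72403419. The letters CAGCTG, an E-box read by E proteins, stand in 5 of the 6, in all but Gm32004, and as adjoining copies in Nron. A gene was counted once when any of its promoters matched, and shares are given for 36 members, 143 comparison genes and all 27025 genes with a promoter, in that order. The E-box was in 15 members (41.7%), against 14.0% and 18.3%. The RUNX letters TGTGGT were in 25.0%, 10.5% and 18.9% of promoter-matched genes. For GATA factors the letters AGATAA were in 19.4%, 12.6% and 12.7%. The ETS letters CCGGAA were in 19.4%, 32.2% and 16.7%, lower in members than in the comparison set but not than in all genes. TCF and LEF letters, CTTTGAT, were in 3 members (8.33%), against 3.5% and 4.29%. Ikaros letters, TGGGAA, were in 33.3%, 22.4% and 28.3%. The TATA box letters TATAAA were in 22.2%, 13.3% and 15.7%. Genes with several promoters have more chances to match, so shares were also counted over promoters, of which there were 57, 169 and 32851. Over promoters the Ikaros letters were in 21.1%, 20.1% and 25.6%, lower in members than in all promoters. The RUNX letters were then in 17.5%, 10.1% and 16.8%, and the GATA letters in 24.6%, 10.7% and 11.2%. The TATA box letters were in 14.0% of the members' promoters and 13.6% of all, and the E-box in 29.8% and 16.3%. The TCF and LEF letters were in 14.0%, 2.96% and 3.73% of promoters, and the ETS letters in 12.3%, 31.4% and 14.9%. Promoters of 1 gene can overlap, so that 1 site is counted several times. The 8 member promoters with TCF and LEF letters came from 3 genes, and several of Gm11695, which start a few bases apart, share the same site. The 14 with GATA letters came from 7 genes. The members' promoters had a median GC content of 49.0% and 5 CpG dinucleotides, against 56.7% and 16 in the comparison set. A match is a run of letters and not a bound site.

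Other members with names of their own had varied levels. Lockd, transcribed 3579 bp from the cell cycle inhibitor gene Cdkn1b, measured 6.6, 6.52 and 7.11 FPKM in controls and 1.19, 0.298 and 0.52 FPKM after irradiation. Cdkn1b fell by 0.97 on the log2 scale (limma adjusted p = 0.00444), from 43.7 to 22.1 FPKM. Nespas, antisense to the imprinted Gnas locus, measured 4.52, 5.22 and 5.3 FPKM and then 1.13, 0.14 and 0.292 FPKM. Gnas, the stimulatory G protein alpha subunit, rose from 58.3 ± 6.05 to 200 ± 94.4 FPKM (SD, n = 3 per group; log2 difference 1.65, SE 0.37, limma adjusted p = 0.00686). Mm2pr and Eldr kept 20.9% and 22.3% of control means of 2.52 and 3.05 FPKM. Kis2 measured 3.96, 1.32 and 1.81 FPKM in controls and 0.535, 0.249 and 0.0401 FPKM after irradiation, a spread of 13.3-fold among the latter.

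A list of 39 lncRNA gene names, which holds Trp53cor1 also as Linc-p21, was looked up as well. Of these, 34 were found and 29 tested. Among these 10 fell, 10 rose and 9 did not pass. Nron, Mirt1 and 4930417O13Rik, which count among those that fell, and Xist, which did not pass, are members chosen on these values. Trp53cor1, also called lincRNA-p21 and a target of p53, rose from 0.0473 to 1.99 FPKM (limma log2 difference 3.83, adjusted p = 0.000329). Pvt1 rose from 1.64 to 11.2 FPKM and Lncpint from 14.2 to 49.4 FPKM (limma adjusted p = 0.00025 and 0.00144). Mir17hg, left out of the members by its name, fell from 10.7 to 2.19 FPKM (limma log2 difference -2.31, adjusted p = 0.00121). Malat1, at 1810 and 1980 FPKM, and Neat1, at 23.9 and 25.1 FPKM, did not pass (limma adjusted p = 0.822 and 0.855).

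The nearest gene of the mRNA table was found within 100 kb for 95 members, and 6 members had none. These were 82 distinct genes, of which 74 were tested. Of the 74, 54 fell (73.0%), 5 rose (6.76%) and 15 did not pass, with a median log2 difference of -1.36. Over the 14001 genes tested in the mRNA table, 20.9% fell and 42.4% rose, with a median of 0.40. The neighbours of the comparison set, 274 tested genes, fell in 33.9% and rose in 25.2%, with a median of -0.19. After quantile normalization 4403 genes of the mRNA table fell and 3501 rose, while 62 neighbours fell and 2 rose. Overlapping genes can share reads on the same strand, and on opposite strands where counting ignores strand, so the relation was split. Neighbours that overlapped on the same strand fell in 13 of 15, those on the opposite strand in 24 of 35, and those without overlap in 20 of 28. In the comparison set these were 34 of 85, 27 of 88 and 34 of 106. A gene that has several relations is counted in each. The difference between these 3 relations was not tested.

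**Figure D5:**
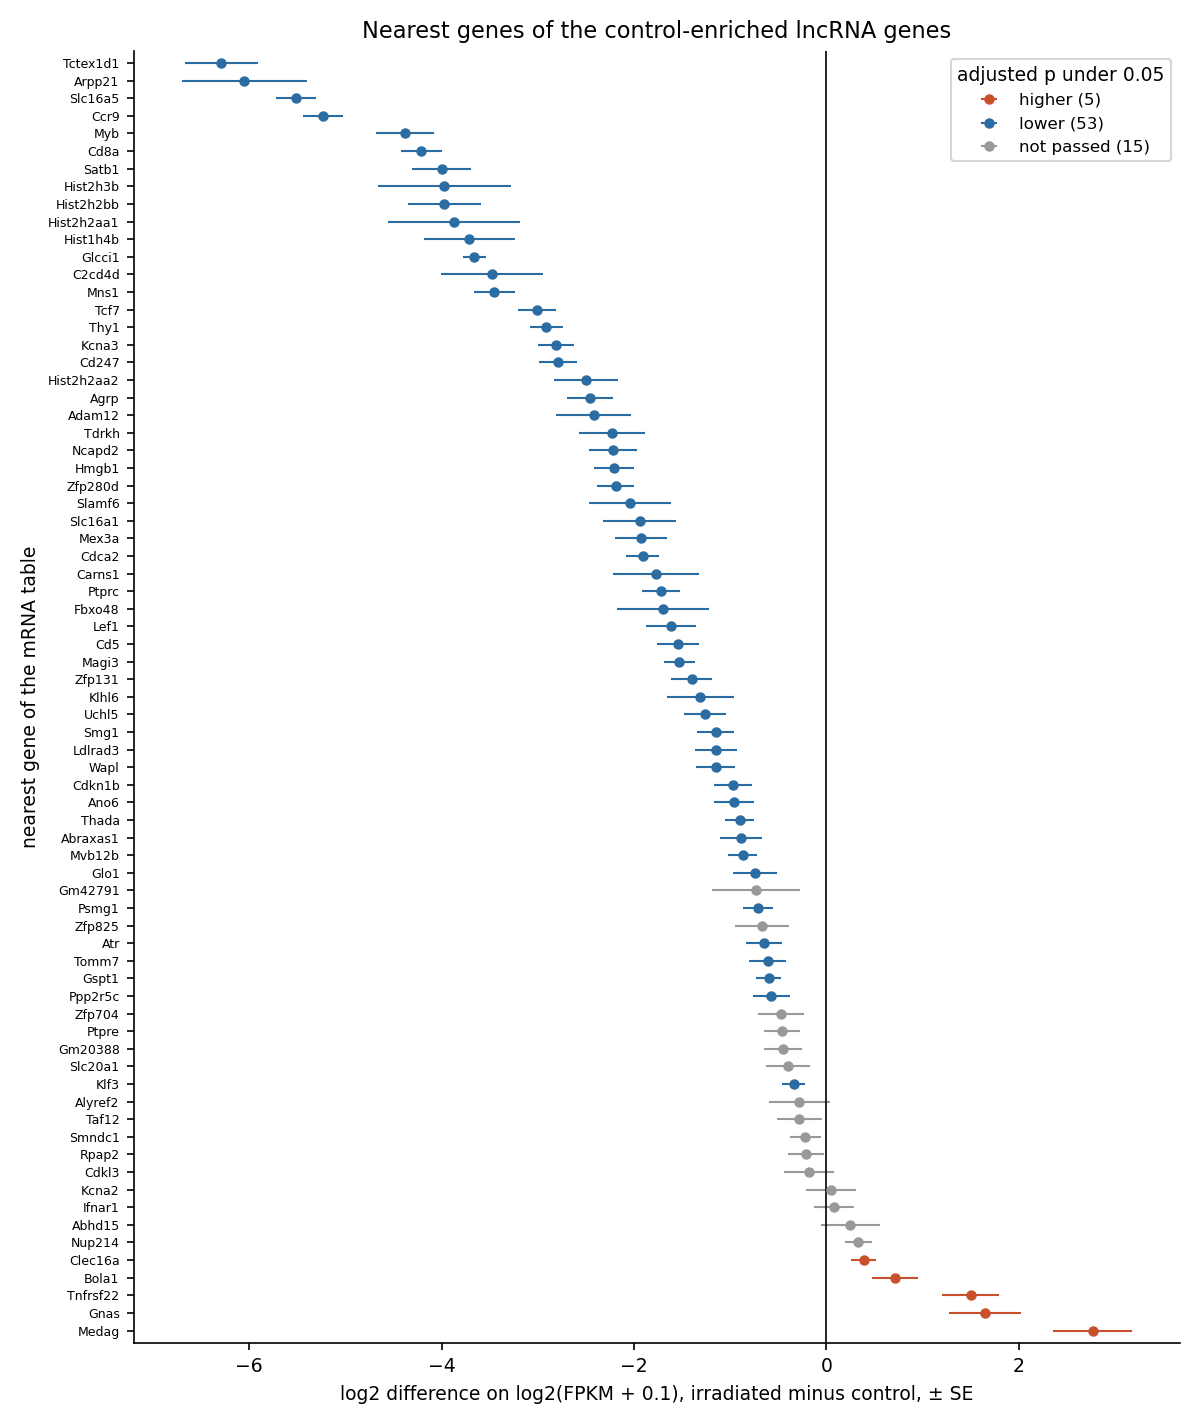
Log2 difference on log2(FPKM + 0.1), irradiated minus control, with its SE, for 73 of the 74 tested nearest genes, coloured by whether they passed an adjusted p of 0.05 in limma. Tctex1d1, Arpp21, Slc16a5 and Ccr9 stand lowest, and 5 genes from Clec16a to Medag stand on the higher side.

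The 5 neighbours that rose were Medag, Gnas, Tnfrsf22, Bola1 and Clec16a. Medag, a gene of fat cell differentiation 18153 bp from BC028471, rose from 0.606 to 4.69 FPKM (limma log2 difference 2.77, adjusted p = 0.00117). BC028471 measured 19.4, 21.6 and 24.6 FPKM in controls and 0.108, 0.0741 and 0.378 FPKM after irradiation, so the neighbours moved in opposite directions. Adipocyte markers were also higher in the irradiated libraries, as given above, and their part in Medag was not tested. Tnfrsf22, opposite E230032D23Rik, rose from 0.629 to 2.01 FPKM (limma log2 difference 1.5, adjusted p = 0.0043). After quantile normalization its log2 difference was 0.02 (limma adjusted p = 0.962). Bola1 at Gm15444 and Clec16a at Gm15558 had adjusted p of 0.034 and 0.0389 by limma and lost the call without control replicate 2 or 3 or irradiated replicate 2 or 3 (Clec16a also without control replicate 1). They lost it too with the replicate block (limma adjusted p = 0.0688 and 0.0605), after quantile normalization (log2 differences 0.08 and 0.13) and after median-ratio scaling (0.33 and 0.0). Clec16a also lost it after scaling to equal summed FPKM. Gm15558 itself measured 2.98, 3.95 and 5.75 FPKM in controls and 0.0201, 0.155 and 0.0716 FPKM after irradiation. Nup214, a nuclear pore protein opposite Gm16534, measured 18.2 and 22.9 FPKM and did not pass (limma adjusted p = 0.0821), while Gm16534 kept 6.88% of 14.0 FPKM.

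The 101 members had 209 listed transcripts, and 45 members had 2 or more. In 15 of the 45, a single transcript held at least 80% of the control level. Only 9 of the 209 transcripts had a higher mean in irradiated than in control thymus. Mirt1 shows how a gene sum can hide this. The gene measured 5.94, 9.9 and 9.56 FPKM in controls and 1.12, 0.952 and 2.54 FPKM after irradiation, but its transcript ENSMUST00000237144 (chr19:53461646-53464796) measured 0.0064, 0.00298 and 9e-06 FPKM and then 0.309, 0.286 and 1.31 FPKM. That transcript made up 0.037% of the gene's control level and 41.3% of its irradiated level. In the authors' deposited table its log2 fold change was 5.71 with an adjusted p of 0.0003. An adjusted p is given for 198 member transcripts in the authors' deposited table. Of these, the authors' deposited table gives 189 a log2 fold change below 0, 125 of them with an adjusted p under 0.05, in 85 members, and 2 transcripts above 0 pass. How reads were divided among overlapping transcripts is not given in the sources used here.

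At the level threshold, Gm17021 (2.019 FPKM), 2810455O05Rik (2.075 FPKM) and C030034L19Rik (2.085 FPKM) were just inside, and Gm43647 (1.995 FPKM), 2810408I11Rik (1.993 FPKM) and Gm17509 (1.975 FPKM) just outside. At the ratio threshold, Gm29170 (25.0% left), 2700038G22Rik (24.9%) and C030032O16Rik (24.3%) were just inside. Gm49602 (25.6%), D330041H03Rik (25.7%) and Gm21982 (25.7%) were just outside. Values ran on across both thresholds without a gap, and the comparison set held 160 genes that fell, 19 that rose and 161 that did not pass, with a median log2 difference of -0.84.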

How the data were processed

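Polyadenylated RNA from thymus of 3 control and 3 irradiated C57BL mice was sequenced from NEBNext libraries, per the labels. The deposited tables give FPKM per library, computed by the authors. The submitters' processing notes name DESeq2 1.10.1, and the tables hold the authors' log2 fold changes and adjusted p-values. The aligner, the counter, strand use and the annotation release: not given in the sources used here. Transcript starts and ends matched GENCODE M21 (build GRCm38) for 99.91% of shared Ensembl transcripts in the lncRNA table and 99.81% in the mRNA table.

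From the deposited values, 53001 lncRNA-table transcripts were summed to 23336 genes, after 62 lines of overflow text were dropped. The mRNA table gave 1 value per gene for 21954 genes. Depth in reads is not in the files. Summed FPKM in the lncRNA table was 79141.6 to 84166.3 in controls, and 81980.0, 51207.8 and 57559.0 in irradiated replicates 1, 2 and 3. In the mRNA table it was 265813.4 to 274421.9 in controls, and 249245.4, 316530.7 and 305775.7 in irradiated replicates 1, 2 and 3. The worth of 1 fragment was read from the smallest steps of FPKM. Precision is limited by 3 libraries per group, and p-values measure only the spread between these samples.

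Each table was fitted alone with limma 3.58.1 (R 4.3.3) on log2(FPKM + 0.1), for genes with a mean of at least 0.5 FPKM, with empirical Bayes moderation, an abundance trend and Benjamini-Hochberg adjustment over all genes tested. A log2 difference is irradiated minus control and understates the change of low genes. The fit was tested on simulated data. Same-numbered libraries were checked for pairing and did not deviate together.

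The members, gene lists and tests were chosen with earlier results of these data known. The text names members by kind of symbol, highest control mean, lowest share left, nearness to thresholds, a T cell list gene within 100 kb, a neighbour that did not fall, number of transcripts and spread of irradiated libraries. Members at shared loci and those with changed transcripts (for example BC028471, Gm43256 and A930002I21Rik) were named after their values were seen. Where several genes overlap a member, the one with the largest overlap is its nearest gene. A gene near members is counted but is not reported here by name. Alternatives were pseudocounts, filters, scalings, the replicate block, other thresholds and distances, and leaving out each library.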

Additional observations from a re-analysis of the deposited data

How the results depend on the processing

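The number of members follows its thresholds. It was 101 as chosen, 158 with a control mean of at least 1 FPKM, 51 with at least 5 FPKM, 239 with an irradiated mean of up to 0.5 of the control mean and 59 with up to 0.125. Median-ratio scaling kept 75 of the members and scaling to equal summed FPKM 78, with 0 genes added by either. Leaving out each library gave 91 to 129 genes. Without irradiated replicate 1 all 101 members met the rule, with 28 more, and without irradiated replicate 2 the rule lost 12. The log2 difference of Xist turned to 0.13 without control replicate 1, and was -3.06 without control replicate 3.

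Without a filter on low values, 2286 lncRNA-table genes rose, and 1827, 1628 and 1783 fell after quantile normalization, median-ratio scaling and scaling to equal summed FPKM. Leaving out each library gave 1647 (without control replicate 3) to 3788 genes that fell and 1157 to 1548 that rose, and fewest fell when a control was left out (1889 and 1771 without control replicates 1 and 2). After quantile normalization, 4403 mRNA-table genes fell and 3501 rose, and 4558 fell after median-ratio scaling.

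Among the neighbours, 48 to 57 fell and 3 to 6 rose as each library was left out. Those that rose numbered 2 after quantile normalization, 3 after median-ratio scaling and 9 when overlapping genes were passed over, where 42 fell. The cause of these shifts was not tested. With the replicate block 53 neighbours fell and 3 rose, and the lncRNA table had 2496 lower and 1440 higher genes. Same-numbered libraries had correlations of 0.00321 to 0.033 in the lncRNA table and -0.0433 to 0.0596 in the mRNA table, and they share only a number. The 15 T cell genes near members kept their call in every fit run, and double-positive thymocyte genes that fell numbered 20 to 22. For the 101 members, 838 of the log2 differences under alternatives moved by less than 1 SD and 171 by more, 127 of these with another pseudocount.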
